A study of Mus musculus with 4 samples.

Results

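The mouse Zfp genes encode zinc finger proteins, named with Zfp and a number, and most of their products are DNA-binding regulators with C2H2 fingers. This account covers the Zfp genes near whose start site the transcription factor XBP1s was found in natural killer (NK) cells. Members were protein-coding genes named Zfp with a number and at most 1 letter to which the authors had assigned a peak centred no more than 5000 bp from the transcription start site (TSS). There are 84 such genes with 86 peaks, of 394 Zfp genes in the RefSeq annotation and of 3483 protein-coding genes with a peak by the same definition. XBP1s binding was measured by chromatin immunoprecipitation and sequencing in NK cells purified from the spleens of Il15TgXbp1f/f mice, listed with the strain C57BL/6. These animals carry an Il15 transgene and floxed Xbp1 alleles, no Cre is named, and the promoter of the transgene and any pooling of animals are not given in the sources used here. All cells had received IL-15, a cytokine that maintains NK cells, at 50 ng/ml for 1 h. The 4 libraries are 2 precipitations with an XBP1s antibody and 2 inputs without antibody, and no untreated or Xbp1-deleted cells were analysed here.

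The values are 1 combined list of 4890 intervals with no column for any single library. No interval therefore has a replicate error or a known depth, and the score column is 0 throughout. Interval width, position and annotation were the quantities that could be described, and width is not a measure of signal. Because having a peak is what made a gene a member, no test was made on the shares below, and genes are not replicates. Exact Clopper-Pearson 95% intervals are given for shares and cover counting error only. The table holds no expression values, so the NK cell label could be looked at only through peaks: of 8 NK genes, 3 had one (Il2rb, Prf1 and Gzmb) and 5 did not (Ncr1, Klrb1c, Klrk1, Eomes and Tbx21). Their share of 37.5% has an interval of 8.52 to 75.5, which includes the 15.9% of all protein-coding genes, so the label was not checked by it.

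A C2H2 finger is a short fold held by a zinc ion that reads a few bases of DNA, and a row of fingers reads a longer site. The largest group carries a KRAB domain, which recruits the corepressor TRIM28 (KAP1), the histone methyltransferase SETDB1 and HP1 proteins. Many KRAB zinc finger proteins silence transposable elements, and their genes arose by tandem duplication and lie in clusters. Other Zfp proteins act at promoters, on RNA, in ribosome assembly or in cell division. XBP1s, made when the sensor IRE1 splices Xbp1 mRNA, is known to bind sites with an ACGT core such as CCACGT.

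The sequences below show the XBP1 and CREB or ATF words found in the promoters of the members. RefSeq promoter windows (GRCm38.p6, the assembly of mm10, 250 bases before to 50 after each start site) were matched by gene number for 70 of the 84 members. In 60 of these the window overlapped the member's widest peak. Both strands were searched for CCACGT, the core bound by XBP1s, for the longer XBP1 word TGACGTGG, which contains that core on the opposite strand, and for the ER stress element, CCAAT followed after 9 bases by CCACG. They were also searched for TGACGTCA, the palindromic element of the CREB and ATF factors. The matches are printed as 30-base windows on the strand of the gene, 5′ to 3′, with the matched word in capitals. CCACGT on the opposite strand reads as ACGTGG.

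Zfp263: tggaccgtgagtACGTGGtgagacccgacc
Zfp719: ccacccagggctACGTGGtagtgaactgag
Zfp266: tggagagctccaACGTGGctgagaactccg
Zfp266: ggaaatggaagTGACGTCAcggccagcccc
Zfp523: acccggcgtcgTGACGTCAtcacgccctcc
Zfp335: tgggacctgcgTGACGTCAtgccacttccc
Zfp292: tgaccccgccgaACGTGGcattgtgttatc
Zfp367: gcggcggccaaTGACGTGGcagtaaggacc
Zfp526: CCACGTtcatttgtgcgacctcgctctata
Zfp868: cagtacgcggaTGACGTCAcgatccgggct
Zfp426: gcgagcggaagTGACGTCAtgcccgcgccc

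These windows lie at chr16:3744030-3744059 (Zfp263, plus strand), chr7:43579542-43579571 (Zfp719, plus), chr9:20521452-20521481 and chr9:20521418-20521447 (Zfp266, minus) and chr17:28177123-28177152 (Zfp523, plus). The others lie at chr2:164911798-164911827 (Zfp335, minus), chr4:34882960-34882989 (Zfp292, minus), chr13:64153344-64153373 (Zfp367, minus), chr7:25221175-25221204 (Zfp526, plus), chr8:69625185-69625214 (Zfp868, minus) and chr9:20492750-20492779 (Zfp426, minus). All of the printed words sat within their member's peak except that of Zfp335, which lies at the interval's edge, and that of Zfp526, which starts at the far end of the promoter window, 250 bases before the start site. In the promoter of Zfp266 both kinds of word stood close to the start site, CCACGT with its first base at -50 and TGACGTCA at -17. The CREB and ATF word of Zfp426 began at -22, that of Zfp868 at -28, that of Zfp523 at -62 and that of Zfp335 at -66. Zfp367 alone among the 60 windows held the longer XBP1 word, at -163. Each match is a description of letters, not a shown binding site.

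CCACGT, TGACGTGG and the ER stress element stood in few of the member promoters. CCACGT was present in 6 of 60 member windows (10%, 95% interval 3.76 to 20.5). It was present in 19.1% of 2277 windows of other protein-coding genes with a peak (17.5 to 20.8) and in 8.31% of all 32851 windows in the table. Among 254 windows of Zfp genes with no assigned peak and no interval over the window the share was 8.66%. TGACGTGG was found in 1 member window (1.67%, against 2.24% of other genes with a peak and 0.676% of all windows). No member window held the ER stress element (0 of 60, against 0.439% and 0.119%, and the exact upper limit for 0 of 60 is 5.96%). The CREB and ATF word TGACGTCA also holds the letters ACGT. At least 1 of CCACGT, TGACGTGG and TGACGTCA was in 10 of 60 member windows (16.7%, 8.29 to 28.5). The shares were 23.8% of other genes with a peak (22.1 to 25.6), 10.6% of Zfp genes without one and 9.92% of all windows. A missing match says only that these letters are absent from this window.

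Words of other factor classes differ in how often they occur in any promoter, so each is given beside its shares in other sets. TGACGTCA was present in 5 of 60 (8.33%, 2.76 to 18.4), compared with 5.84% of other genes with a peak, 2.36% of Zfp genes without a peak and 1.79% of all windows. GGAAGT, a core of ETS factors, was present in 31 of 60 (51.7%, 38.4 to 64.8), compared with 37.3% of other genes with a peak (35.3 to 39.4), 35% of Zfp genes without one (29.2 to 41.3) and 23.8% of all windows. AAGATGG, a word of YY1, was present in 9 of 60 (15%, 7.1 to 26.6), compared with 9.44%, 6.3% and 6.34% in the same order. GGGCGG, the GC box of SP factors, stood in 31 of 60 (51.7%), compared with 70.8% of other genes with a peak (68.9 to 72.7), 41.7% of Zfp genes without one and 35.7% of all windows. CTACAATT, part of a site of ZNF143, was in 1 member window (1.67%) and in 9 of 254 windows of Zfp genes without a peak (3.54%), against 0.749% of all windows. For the GC box, and for the E-box CACGTG given with the next sequences, the intervals of members and other genes with a peak do not overlap, with the lower share in the members. For the ETS core they overlap narrowly. None of these differences was tested.

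The bases before the start sites are shown for the widest members whose peak overlapped a RefSeq window, so that long intervals with and without the searched words can be compared. Each line holds the 150 bases that end just before the RefSeq start site nearest to the peak centre, on the strand of the gene, with every searched word in capitals.

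Zfp143: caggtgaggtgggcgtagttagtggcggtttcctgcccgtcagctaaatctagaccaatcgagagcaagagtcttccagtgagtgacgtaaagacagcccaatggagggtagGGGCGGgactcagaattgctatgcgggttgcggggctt
Zfp687: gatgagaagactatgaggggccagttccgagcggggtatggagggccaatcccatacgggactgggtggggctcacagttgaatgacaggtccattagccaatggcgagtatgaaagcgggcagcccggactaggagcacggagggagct
Zfp330: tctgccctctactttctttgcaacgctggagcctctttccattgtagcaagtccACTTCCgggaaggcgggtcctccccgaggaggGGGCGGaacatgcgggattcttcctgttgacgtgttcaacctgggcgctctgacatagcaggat
Zfp869: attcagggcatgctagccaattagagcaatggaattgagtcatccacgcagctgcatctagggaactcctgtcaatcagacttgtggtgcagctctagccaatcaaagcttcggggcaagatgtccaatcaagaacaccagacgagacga
Zfp142: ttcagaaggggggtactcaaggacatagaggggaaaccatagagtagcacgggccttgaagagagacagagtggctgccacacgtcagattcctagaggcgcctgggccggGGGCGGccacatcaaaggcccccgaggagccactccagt
Zfp207: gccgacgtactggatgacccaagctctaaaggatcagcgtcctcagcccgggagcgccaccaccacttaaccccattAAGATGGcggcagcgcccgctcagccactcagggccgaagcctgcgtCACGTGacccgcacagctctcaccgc

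They lie at chr7:110061552-110061701 (Zfp143, plus strand), chr3:95015458-95015607 (Zfp687, minus strand) and chr8:82774146-82774295 (Zfp330, minus strand). The others lie at chr8:69716903-69717052 (Zfp869, minus strand), chr1:74588029-74588178 (Zfp142, minus strand) and chr11:80383129-80383278 (Zfp207, plus strand). The stretches of Zfp687 and Zfp869 held none of the searched words. Zfp143 held 1 GC box at -38, and Zfp142 held 1 at -39. Zfp330 held an ETS core on the opposite strand at -96 and a GC box at -64. Zfp207 held the YY1 word at -73 and CACGTG, an E-box, at -26. Over whole windows, CACGTG was in 2 of 60 of the members (3.33%, 0.406 to 11.5), compared with 14.9% of other genes with a peak (13.4 to 16.4), 8.27% of Zfp genes without one and 7.15% of all windows.

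Promoter composition was intermediate. The median G + C content of the member windows was 59.2% (interquartile range 53.9 to 64.1), compared with 62% for other genes with a peak (57 to 67.3) and 54.3% for Zfp genes without a peak (48.7 to 59.7). The observed CpG count as a ratio of that expected from G and C had medians of 0.756, 0.858 and 0.574 in that order. The 60 and 254 Zfp windows were then grouped by this ratio, which leaves out members whose peak missed the window. A peak was present at 2 of 69 Zfp windows with a ratio under 0.4 (2.9%, 0.353 to 10.1), 12 of 75 between 0.4 and 0.6 (16%, 8.55 to 26.3), 23 of 93 between 0.6 and 0.8 (24.7%, 16.4 to 34.8) and 23 of 77 from 0.8 upwards (29.9%, 20 to 41.4). Over other protein-coding genes the shares were 0.89%, 7.26%, 20.1% and 32.4%. Peaks were rare at the CpG-poorest promoters in both sets, and from 0.4 to 0.6 the Zfp interval lay just above that of the other genes (6.16 to 8.48).

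**Figure D1:**
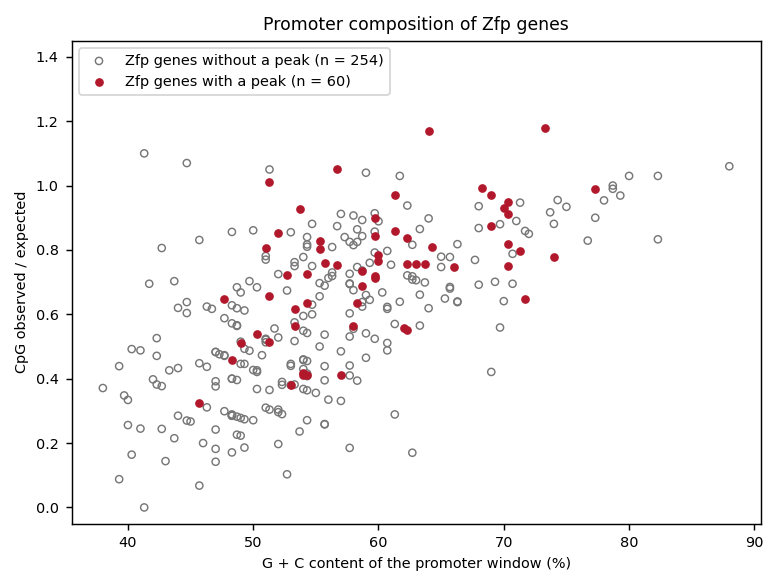
Each point is the RefSeq promoter window of 1 Zfp gene, with its G + C content in % on the x axis and its ratio of observed to expected CpG on the y axis. The 60 genes with a peak (filled) lie mostly at a ratio above 0.4, while the 254 without one (open) spread over the whole range.

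Among all 394 Zfp genes, 84 had a peak (21.3%, 95% interval 17.4 to 25.7). The share over all 21900 protein-coding genes was 15.9%, and over the 21506 that are not Zfp genes it was 15.8% (15.3 to 16.3). These intervals of Zfp and other genes do not overlap, but the sets were not matched for promoter composition and the difference was not tested. In the CpG groups given above, the Zfp share was the higher below a ratio of 0.8. From 0.8 upwards it was 29.9% (20 to 41.4), against 32.4% of other genes (31 to 33.8). Among the widest 50% of intervals, 11.9% of Zfp genes (8.9 to 15.5) and 8.97% of others had a peak. There the Zfp interval includes the share of the others. The same held with intervals counted near either gene end (21.1%, 17.1 to 25.4, against 17.4%). The interval of Zfp genes off chromosome 7 (14.7 to 23.8) includes 15.8%. Only Zfp827 (1853 bp) and Zfp217 (1770 bp), both downstream, were centred more than 1000 bp from the TSS. The nearest peak outside the limit was that of Zfp362, at -5452 bp, where a minus sign marks an upstream position.

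Peaks at these genes sat close to the start site. Of the 86, 84 were centred within 1000 bp of the TSS (97.7%, 91.9 to 99.7) and 83 within 500 bp (96.5%, 90.1 to 99.3), compared with 91.3% and 84% of the 3716 peaks within 5000 bp of other protein-coding genes. The median distance between centre and TSS, over the widest peak of each member, was 100 bp (interquartile range 52.25 to 175), compared with 135 bp for the other genes (61 to 268.5). By the authors' distance, 66 of the 86 intervals reached over the TSS (76.7%, 66.4 to 85.2), compared with 62.4% at other genes (60.8 to 63.9). Upstream centres made up 36%, compared with 39.9%.

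The authors' annotation put 62 of the 86 intervals in promoters (72.1%, 61.4 to 81.2), 11 in introns (12.8%), 10 in 5' untranslated regions (11.6%) and 3 in exons (3.49%). At other protein-coding genes promoters held 64%, introns 17.4%, 5' untranslated regions 6.89% and exons 6.3%. No member interval was annotated as intergenic or at a transcript end, where 2.66% and 1.64% of the others lay. The 3 exon peaks were in exon 1 of Zfp446, Zfp882 and Zfp386. Of the intron peaks, 10 were in intron 1, and that of Zfp217 was in intron 2 of 6.

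**Figure D2:**
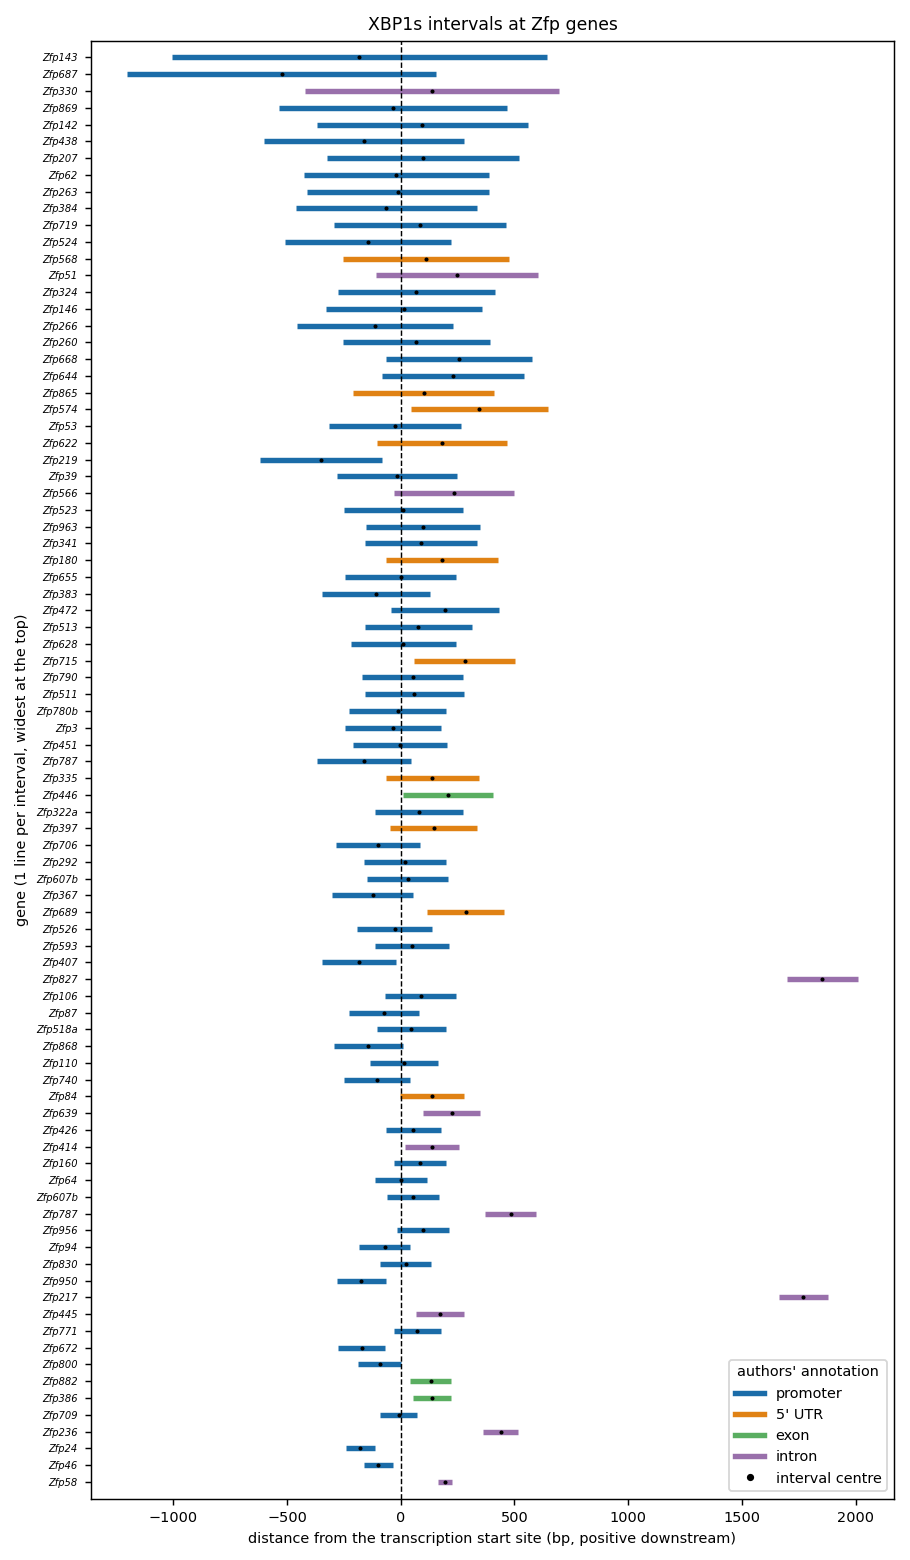
Each line is 1 of the 86 intervals at the 84 Zfp genes, drawn by its distance from the TSS in bp on the x axis, with its centre as a dot and coloured by the authors' annotation. Rows are ordered by width, from Zfp143 with 1650 bp to Zfp58 with 62 bp, and all but those of Zfp827 and Zfp217 lie around the dashed line of the start site.

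Widths of the members were close to those at other genes. The widest interval per member had a median of 415 bp (interquartile range 273.5 to 606.75), and that of the other 3399 genes a median of 410 bp (281 to 625). In the tails, 4 of 84 members (4.76%, 1.31 to 11.7) were in the widest 10% of genes, from 937 bp upwards, and 11 (13.1%, 6.72 to 22.2) in the narrowest 10%, up to 212 bp, and both intervals include the 10% of the definition. In the cumulative plot of widths the curves run together in the middle.

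**Figure D3:**
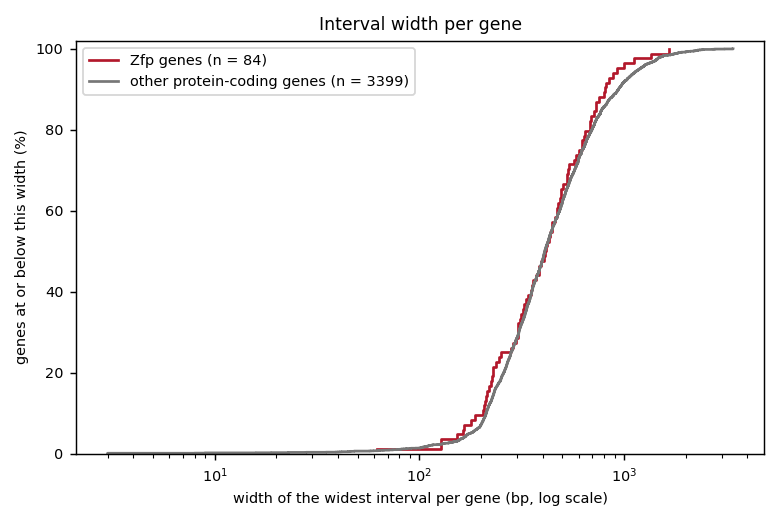
The curves give the share of genes in % whose widest interval is at or below the width on the x axis (bp, log scale), for the 84 Zfp genes and 3399 other protein-coding genes with a peak. The curves cross near their medians of 415 and 410 bp, and the Zfp curve ends at 1650 bp while the other reaches 3413 bp.

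The widest intervals were at Zfp143, Zfp687, Zfp330 and Zfp869, the only members above 1000 bp. Zfp143 (Entrez gene 20841) had 1650 bp (chr7:110060696-110062345), centred at -182 bp in the promoter. Its product, ZNF143 in humans, activates snRNA and many protein-coding genes and has been reported at chromatin loop anchors. Of all 3802 peaks near protein-coding genes, 53 were wider. Zfp687, whose product works in a chromatin complex with ZMYND8, had 1360 bp (chr3:95015301-95016660, centred at -523 bp), and the interval also took in an end of the noncoding gene 4930481B07Rik. Zfp330, which encodes a nucleolar protein, had 1116 bp (chr8:82773451-82774566), annotated to intron 1 of 9 although the interval also reached over the TSS. Zfp869 had 1003 bp at the promoter (chr8:69716434-69717436).

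The next members by width were Zfp142 (927 bp), Zfp438 (881 bp) and Zfp207 (844 bp). Zfp207 encodes BuGZ, which binds BUB3 and acts in spindle assembly. Zfp62 followed with 816 bp, Zfp263 with 804 bp and Zfp384, which encodes the nuclear matrix factor Nmp4, with 798 bp. Zfp719 had 757 bp, Zfp524 and Zfp568 had 730 bp each, Zfp51 had 714 bp and Zfp324 had 690 bp. Zfp568 encodes a KRAB zinc finger protein that silences a placental promoter of Igf2 in the mouse embryo. Its interval (chr7:29983704-29984433) was annotated to the 5' untranslated part of exon 1 of 10 and also reached over the TSS.

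A further 7 members had widths from 602 to 686 bp: Zfp146, Zfp266, Zfp260, Zfp668, Zfp644, Zfp865 and Zfp574. Between 400 and 600 bp lay 22 members. Zfp523 (525 bp) encodes a paralogue of ZFP143. Zfp341 (492 bp), whose human counterpart activates transcription of STAT3, and Zfp335 (408 bp), which is needed for T cell maturation, are genes with known immune roles. Zfp622 (572 bp) encodes a factor of late 60S ribosomal subunit maturation, and Zfp451 (417 bp) a SUMO ligase. The rest of this band were Zfp53, Zfp219, Zfp39, Zfp566, Zfp963, Zfp180, Zfp655, Zfp383, Zfp472, Zfp513, Zfp628, Zfp715, Zfp790, Zfp511, Zfp780b, Zfp3 and Zfp787, with 413 to 581 bp.

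Between 300 and 400 bp lay 16 members. Zfp593 (325 bp) is another gene of ribosome assembly, Zfp106 (312 bp) encodes an RNA-binding protein that motor neurons need, and Zfp827 (313 bp) a protein that brings the NuRD complex to telomeres. The others were Zfp446, Zfp322a, Zfp397, Zfp706, Zfp292, Zfp607b, Zfp367, Zfp689, Zfp526, Zfp407, Zfp87, Zfp518a and Zfp868, with 304 to 395 bp. Between 200 and 300 bp lay another 16. Zfp445 (210 bp, chr9:122865728-122865937, intron 1 of 6) encodes a KRAB protein that maintains genomic imprints, and Zfp217 (213 bp) a partner of the CoREST and CtBP corepressors. Zfp830 (220 bp) encodes a splicing-associated protein of the early embryo. The others were Zfp110, Zfp740, Zfp84, Zfp639, Zfp426, Zfp414, Zfp160, Zfp64, Zfp956, Zfp94, Zfp950, Zfp771 and Zfp672, with 205 to 298 bp.

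Under 200 bp lay 8 members, Zfp800 (187 bp), Zfp882 (179 bp), Zfp386 (166 bp) and the 5 narrowest. These were Zfp709 (163 bp), Zfp236 (153 bp), Zfp24 (128 bp), Zfp46 (127 bp) and Zfp58 (62 bp). Of these 5, the interval of Zfp709 reached over the TSS and the other 4 did not. Intervals under 200 bp were 9.3% of the members' intervals and 8.5% of those at other genes.

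A second peak within the limit was seen at 2 members (2.38%), against 8.27% of other genes. Zfp787 had 413 bp at the promoter (chr7:6155926-6156338) and 227 bp in intron 1 of 2 (chr7:6155375-6155601), with centres at -161 bp and 483 bp. Zfp607b had 356 bp (chr7:27689193-27689548) and 228 bp (chr7:27674601-27674828). The authors assigned these to different transcripts, at 30 and 53 bp from their start sites.

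Few member peaks were shared with a neighbouring protein-coding gene. In 3 of 86 the interval also covered an end of one (3.49%, 0.725 to 9.86), compared with 9.61% at other genes (8.68 to 10.6). The neighbours were Bcs1l at Zfp142, Map3k10 at the 228 bp interval of Zfp607b, and Cct6b at Zfp830. A start site of another protein-coding gene within 1000 bp of the centre was found for 5 (5.81%, against 12.9%), the same 3 and Fiz1 at Zfp524 and Sh3bp5l at Zfp672. At such shared starts the peak cannot be attributed to either gene. The search for start sites covered only genes with a RefSeq promoter window, so both shares are minimum values. The span of Zfp646, which has no such window, begins at 127876914 on chromosome 7, just past the Zfp668 interval, which ends at 127876899. Ends of long noncoding RNA genes lay inside 5 member intervals (5.81%, against 4.25%), at Zfp687, Zfp869, Zfp146, Zfp39 and Zfp335.

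The opposite case, a Zfp gene whose peak is listed under a neighbour, was looked for among the Zfp genes without an assigned peak. Of 259 with a RefSeq promoter window, 6 had an interval within 1000 bp of the start site (2.32%, 0.855 to 4.97), and over the other protein-coding genes in that position the share was 3.62%. The interval covered the start site itself at Zfp189 (listed under Mrpl50, 392 bp), Zfp507 (E130304I02Rik, 712 bp) and Zfp473 (Vrk3, 376 bp). It lay 10 bp away at Zfp408 (Arhgap1, 768 bp), 47 bp at Zfp91 (Gm44505, 241 bp) and 128 bp at Zfp52 (9330136K24Rik, 249 bp). Zfp36, whose product tristetraprolin destabilises cytokine mRNAs, and Zfp57 and Zfp809, KRAB genes of imprinting and retrovirus silencing, had no assigned peak. These 3 were picked out after their values were seen.

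Chromosome 7 carried the most members, 27 of its 93 Zfp genes (29%, 20.1 to 39.4), while 13.7% of its other protein-coding genes had a peak (12.2 to 15.3). Off chromosome 7 the share was 57 of 301 (18.9%, 14.7 to 23.8). On chromosomes 2, 4, 13 and 17, the next by number of Zfp genes, 18 of 136 had a peak (13.2%, 8.04 to 20.1). No Zfp gene on chromosome X (0 of 8, where a count of 0 allows any share up to 36.9% by the exact interval) or 10 (0 of 6, up to 45.9%) was a member. Chromosome 7 was singled out after its values were seen.

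**Figure D4:**
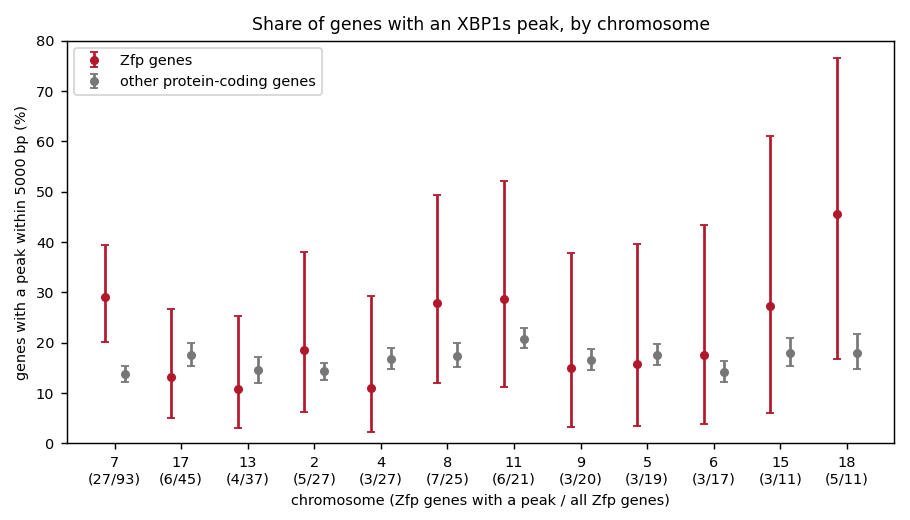
For each chromosome with at least 10 Zfp genes, the points give the share of genes in % with a peak within 5000 bp of the TSS, for Zfp genes and for other protein-coding genes, with exact 95% intervals as bars. On chromosome 7 the Zfp share of 29% stands above the 13.7% of other genes with intervals that do not overlap, and on the other chromosomes shown the intervals overlap. Of the chromosome 7 Zfp genes, 75 lie in 10 clusters, which the intervals do not account for, and the difference was not tested.

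Zfp genes were chained into clusters where less than 250000 bp separated neighbours. Only genes with Zfp names were chained, so a gene called single may still lie near zinc finger genes with other names. Single genes had a peak in 38 of 142 cases (26.8%, 19.7 to 34.8), genes in pairs in 5 of 50 (10%, 3.33 to 21.8) and genes in clusters of 3 or more in 41 of 202 (20.3%, 15 to 26.5). Of 75 clustered genes on chromosome 7, 23 had a peak (30.7%, 20.5 to 42.4) in 8 of 10 clusters. On other chromosomes 18 of 127 did (14.2%, 8.62 to 21.5) in 10 of 19 clusters, and these intervals overlap narrowly. Single genes went the other way, with 2 of 12 on chromosome 7 (16.7%, 2.09 to 48.4) and 36 of 130 elsewhere (27.7%, 20.2 to 36.2). Genes in pairs had a peak in 2 of 6 cases on chromosome 7 and 3 of 44 elsewhere. The promoter windows of clustered genes had a lower CpG ratio (median 0.564) than those of single genes (0.754), and those on chromosome 7 (0.646) were near those on other chromosomes (0.618). Whether reads from near-identical copies could be placed in each cluster was not tested.

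The cluster with the most members spans 401.2 kb of chromosome 7 (29768552 to 30169775). In order along it, Zfp84 (281 bp), Zfp790 (443 bp), Zfp383 (474 bp), Zfp568 (730 bp), Zfp566 (527 bp), Zfp260 (648 bp) and Zfp146 (686 bp) had a peak. The 8 genes Zfp30, Zfp940, Zfp420, Zfp27, Zfp74, Zfp14, Zfp82 and Zfp382, which lie among them, had none assigned. Groups of 3 members were Zfp628 (462 bp), Zfp524 and Zfp865 (621 bp) in a cluster of 6 genes, and Zfp110 (298 bp), Zfp324 and Zfp446 (395 bp) in one of 5, both on chromosome 7. Zfp771 (208 bp), Zfp689 (339 bp) and Zfp668 (639 bp) belonged to a chromosome 7 cluster of 10, and Zfp868 (304 bp), Zfp869 and Zfp963 (501 bp) to a cluster of 5 on chromosome 8.

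Other large clusters held fewer peaks, on chromosome 7 too. There a cluster of 12 genes had Zfp180 (491 bp) and Zfp94 (225 bp), and one of 8 had Zfp607b and Zfp780b (428 bp). The cluster of 12 genes on chromosome 4, which spans 1400 kb, had none (0 of 12). The largest, of 23 genes on chromosome 13, had Zfp58 and Zfp87 (305 bp). On chromosome 17, a cluster of 18 genes had Zfp51 and Zfp53 (581 bp), and one of 13 had Zfp472 (473 bp) and Zfp414 (238 bp).

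**Figure D5:**
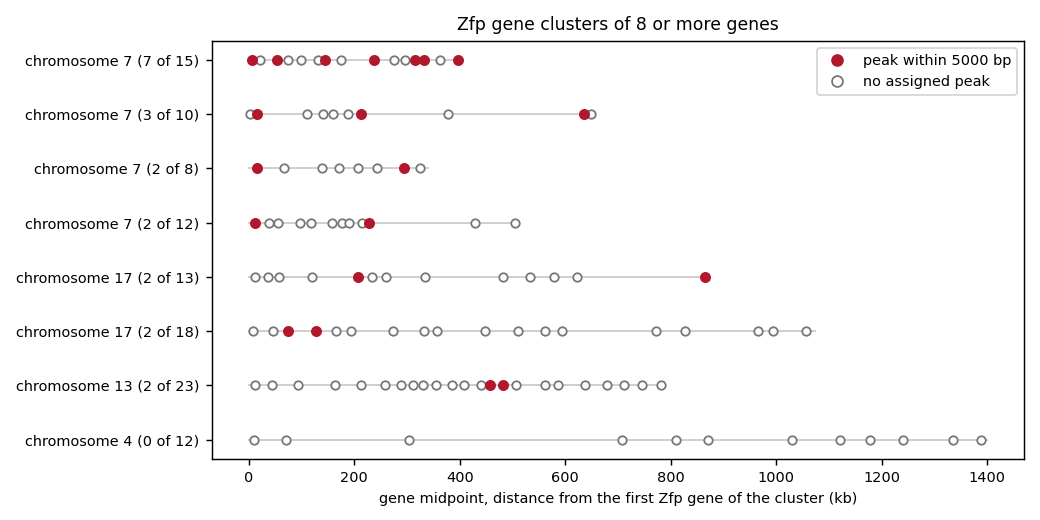
Each row is a cluster of 8 or more Zfp genes, with gene midpoints by their distance in kb from the first gene of the cluster on the x axis, filled where the gene has a peak within 5000 bp of its TSS. The chromosome 7 cluster with 7 of 15 has peaks along its whole length, and the chromosome 4 cluster with 0 of 12 has none.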

How the data were processed

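Per the labels, XBP1s-bound and input DNA from mouse splenic NK cells were sequenced (2 libraries each). Per the file headers, the authors ran HOMER's peak annotator on 1 interval list with mm10. Per the submitters' processing notes, reads passed through Bowtie2 (2.4.5) and MACS2 (2.2.7.1); HOMER is listed as 4.11 and 4.11.1. The sources used here do not say how calls were combined or how reads with several placements were handled. Every score that the authors deposited is 0, so width (end minus start plus 1) replaced it; depth per library is unknown.

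Genes were matched by Entrez number to RefSeq (GRCm38.p6). Distances and annotations are the authors'. Shares carry exact 95% intervals; no p-value was computed. The members and lists were chosen with earlier results of these data known. Genes are named by rule: the 15 widest and 5 narrowest, those with several or far peaks, those in clusters with at least 3 members, those sharing a gene end, those with printed words, and the widest 5 of each list, of which 1 gene is not reported here; other members are named by width. A split by protein domains was not run. Searches and intervals were tested on simulated data. Intervals came from SciPy (1.17.1), tables from pandas (2.3.3) and NumPy (2.4.6), under Python 3.11.15, and plots from matplotlib (3.10.9).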

Additional observations from a re-analysis of the deposited data

How the results depend on the processing

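Of 21 recomputed values, 20 stayed within the 95% interval of the value reported. Among the widest 50% of intervals alone, the share of Zfp genes with a peak was 11.9%, against 8.97% of other protein-coding genes. In the other settings it was between 19.3% (intervals of at least 200 bp, against 14.7%) and 23.1% (any distance, against 17.6%). Counted at either gene end within 1000 bp, it was 21.1% against 17.4%. The median width ranged from 415 to 438.5 bp. The alternatives for clusters, chromosome 7, GGAAGT and GGGCGG were chosen after seeing the data. The comparison by protein class, with its other settings, was not run, since no protein sequences were used here. No paired analysis was possible because the list holds no values per library; leaving out replicates was not possible for the same reason.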

Other observations

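Other zinc finger families also had peaks within 5000 bp of their starts. Of 40 Zbtb genes, which join a BTB domain to C2H2 fingers, 13 had a peak within 5000 bp (32.5%, 95% interval 18.6 to 49.1), with a median width of 533 bp. The widest were at Zbtb25 (1750 bp), Zbtb5 (925 bp), Zbtb44 (692 bp), Zbtb7b (639 bp), which encodes the T cell fate factor ThPOK, and Zbtb21 (614 bp). Of 19 Zc3h genes, most of whose CCCH fingers bind RNA, 8 had one (42.1%, 20.3 to 66.5). They included Zc3h7a (1193 bp), Zc3h4 (875 bp), Zc3hav1 (679 bp), which encodes the antiviral protein ZAP, Zc3h11a (457 bp) and Zc3h6 (367 bp). Of 27 Zscan and Zkscan genes 4 had one (14.8%, 4.19 to 33.7), Zscan25 (576 bp), Zscan22 (520 bp), Zscan26 (339 bp) and Zkscan3 (295 bp). The interval of Zscan25 was centred at -2611 bp and annotated as intergenic. Of 17 Klf genes 3 had a peak (17.6%, 3.8 to 43.4), Klf13 (1430 bp), Klf9 (657 bp) and Klf10 (526 bp). The intervals of the first pair of families lie above, and those of the last pair include, the 15.9% of all protein-coding genes. The lists are small, were not matched for promoter composition, and no difference was tested.

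Of 36 genes of the corepressor machinery that KRAB proteins use, 10 had a peak (27.8%, 14.2 to 45.2), an interval that includes the 15.9% of all protein-coding genes. Trim28, the direct partner of the KRAB domain, had 359 bp in exon 1 of 17. Peaks were also at Mbd3 of the NuRD complex (1483 bp), at Cbx3 (763 bp) and Cbx5 (549 bp), which encode HP1 proteins, and at the remodeller gene Smarcad1 (477 bp). Mta2 (474 bp), the DNA methyltransferase gene Dnmt1 (418 bp) and the HUSH complex genes Tasor (302 bp) and Mphosph8 (209 bp) had one as well. No peak was assigned near the start of Setdb1.

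Beyond 5000 bp, 10 intervals were assigned by the authors to a Zfp gene, and 2 of these genes, Zfp324 and Zfp217, were also members. A start site of another protein-coding gene lay within 1000 bp of the centre for the intervals of Zfp619 (Gm33989) and Zfp329 (Zscan18). The widest intervals were 1271 bp at 64652 bp downstream of the start of Zfp958 and 1204 bp at 16711 bp downstream of that of Zfp239, both labelled CpG by the authors. The authors' detailed annotation named a long terminal repeat for the interval of Zfp362 (101 bp) and a LINE element for that of Zfp541 (621 bp). For a second interval of Zfp239 (429 bp) it named a DNA transposon. How much of each interval these elements cover was not measured.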
